A study of Rattus norvegicus with 30 samples.

Results

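The DNA methylation (DNAm) profiles of 10 rats with prenatal alcohol exposure (PAE) were compared with those of 10 untreated control animals (CON). These libraries are 20 of the 30 in the series, taken by their labelled prenatal treatment, and the regions described are the merged autosomal peaks of these 20 libraries. All animals were outbred Sprague-Dawley rats whose prefrontal cortex (PFC) was collected at postnatal day 22. PAE dams had free access to a liquid diet with 36% of its calories from ethanol (6.37% v/v), and CON dams had free access to pellets of the control diet, both from gestation day 1 to 21. The groups therefore differed in ethanol, in the form of the diet and in the amount eaten, since dams drinking ethanol are known to eat less, and these cannot be told apart in this comparison. The 10 pair-fed (PF) animals, whose dams received a measured amount of liquid diet without ethanol, are given only as values beside named regions. Each group held 5 animals labelled female and 5 labelled male, 1 of each from each of 5 dams. CON libraries lay on all 5 sequencing lanes (3, 1, 1, 3 and 2 on lanes 4 to 8), and PAE libraries on 4 of them (2, 2, 3, 0 and 3).

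In mammals DNAm is mostly the methylation of cytosines followed by guanine (CpG). It is generally dense in gene bodies, in repeats and between genes, and sparse at CpG-rich promoters that are in use. Ethanol is known to disturb folate-dependent one-carbon metabolism, which supplies the methyl groups for this mark, and the PFC, which serves executive function and is still maturing at weaning, is among the regions known to be affected by alcohol before birth. In methylated DNA immunoprecipitation sequencing (meDIP-seq), sheared DNA is enriched with an antibody against 5-methylcytosine, so a taller peak means more methylated fragments at that position. The tissue is a mixture of neurons, glia and vessels, and a change in the share of a cell type cannot be told apart from a change of DNAm within cells. Peaks of methylated DNA hold no expression markers, so the labelled tissue could not be checked against them.

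Peaks of the 20 libraries merged into 545056 autosomal regions of Rn6, of which 172148 had a peak in 1 library, 79006 in 2 libraries, and 293902 in 3 or more. The last were tested. Their length ran from 234 to 4284 bp (median 537 bp), and the median number of libraries called per region was 7. The normalized height of a library in a region was the highest pileup of its peaks per 1000000 filtered fragments. A library without a called peak was set to a floor of 0.438, the highest of the lowest heights of the 20 libraries. Its coverage may lie below or above this floor, so differences from such a library may be understated or overstated. Between 11548314 and 15537001 filtered fragments lay behind the heights. PAE libraries had more of them than CON libraries, at 1.428e+07 ± 705904 against 1.339e+07 ± 1.358e+06 (SD, n = 10 each, permutation p = 0.0823). Averaged within lanes that held both groups, the difference was 505712 fragments (exact permutation p = 0.388). The labelled sex went against the sex chromosomes in many libraries: 17 libraries had 0.774 to 1.14% of their peaks on chromosome X and 38 to 87 peaks on chromosome Y, and 3 libraries had 2.66 to 3.04% on X and 6 to 9 on Y. Of the 10 libraries labelled female 9 were in the first class, and of the 10 labelled male 2 were in the second, so labelled sex is used below as a label only. The 3 libraries of the second class lay on lanes 5 and 7, so this class is tied to lane. Whether the dam labels are also affected was not tested. Littermates did not resemble one another more than other animals of their group, with a median correlation of residual heights of -0.0636 over 10 littermate pairs and of -0.0578 over the other 80 pairs of the same group, across 205111 regions called in at least 5 libraries, given as a description.

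PAE libraries tended to hold fewer and lower peaks than CON libraries, but the difference lay within the spread between animals. As heights are divided by filtered fragments, the greater number of these in PAE libraries enters them, and its part was not tested. The number of autosomal peaks was 151576 ± 26759 in CON and 135828 ± 26494 in PAE animals (SD, n = 10 each), a difference of -10.4% (permutation test, p = 0.205, adjusted p = 0.233 over 6 measures). CON libraries ranged from 117648 to 208631 peaks with a median of 144412, and PAE libraries from 103898 to 189772 with a median of 134362, so that the groups overlapped over most of their range. The genome covered by peaks was 60.2 ± 13.5 Mb in CON and 53.0 ± 12.5 Mb in PAE (permutation p = 0.233, adjusted p = 0.233). The median height of all peaks of a library was 0.857 ± 0.0859 in CON and 0.798 ± 0.0708 in PAE (permutation p = 0.106, adjusted p = 0.233). Leaving out the litter of dam E2, whose PAE library 2 covered the most genome of its group, moved this difference from -0.0595 to -0.0888 (permutation p = 0.017), and leaving out the litter of dam C44 moved it to -0.0813 (permutation p = 0.0406).

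Lane moved with these measures. In lane 8 the CON libraries had 194956 peaks on average and the PAE libraries 150928, against 129899 and 120410 in lane 4, and the 3 libraries of lane 7 were all CON. Averaged over the 4 lanes that held both groups, the difference between PAE and CON was -13966 peaks (exact permutation within lanes, p = 0.229) and -0.0525 in median height (exact p = 0.0675). In the 14088 regions called in all 20 libraries, where no library is at the floor for want of a peak, the median height was 1.36 ± 0.177 in CON and 1.23 ± 0.154 in PAE (permutation p = 0.0974, adjusted p = 0.233), and the within-lane difference of -0.119 had an exact permutation p of 0.0283 that did not pass adjustment (adjusted p = 0.17).

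**Figure D1:**
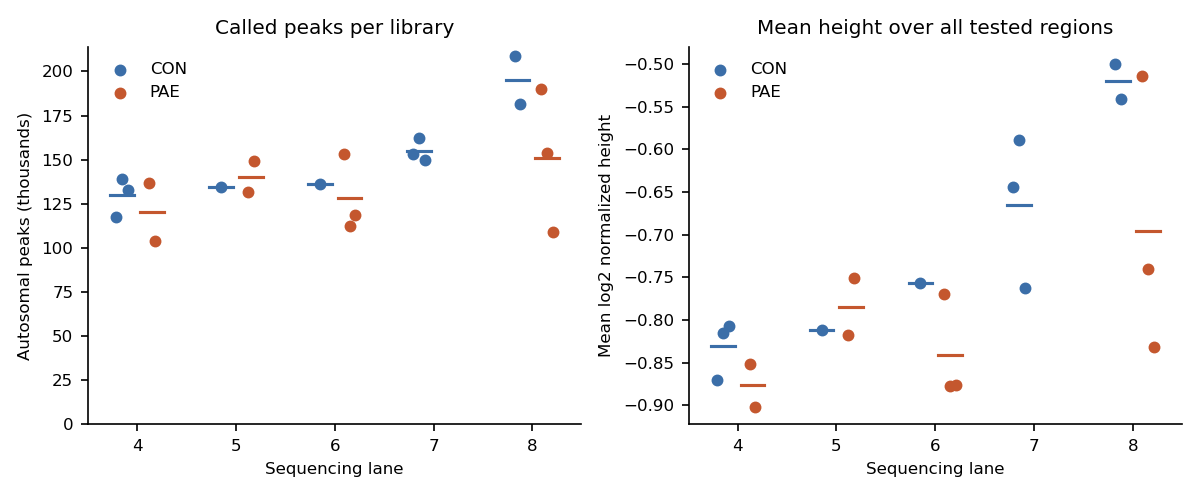
Each point is 1 library, placed by sequencing lane, with bars at the mean of a group within its lane, where the left panel gives autosomal peaks and the right panel the mean log2 normalized height over the 293902 tested regions. Lane 8 holds the libraries with the most peaks of either group, lane 7 holds only CON libraries, and in lane 5 the PAE mean lies above the single CON library.

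Region by region, no region differed between PAE and CON at an FDR of 0.05. Limma with lane and labelled sex as covariates and dam as a random effect called 0 of 293902 regions (0% of tested), the smallest adjusted p was 0.154, and Fisher's exact test of called libraries also called 0. Without adjustment 17820 regions had p under 0.05 in limma (6.06% of tested) and 3057 in Fisher's test (1.04%). Of the former, 15063 were lower in PAE (5.13% of tested) and 2757 higher (0.938%). The littermate correlation that the dam term used was -0.0373, so this term did not make the test stricter. With animals treated as independent 16685 regions had an unadjusted limma p under 0.05, and the smallest adjusted p was 0.187. Over all regions 190226 had a lower fitted height in PAE (64.7% of tested) and 103426 a higher one (35.2%), with a median log2 difference of -0.07; of those with a difference other than 0, on which the shares below rest, 64.8% were lower. Within lanes the share of regions lower in PAE was 59.3% in lane 4, 41.5% in lane 5, 47.5% in lane 6 and 63.9% in lane 8. Lanes 5 and 6 held 1 CON library each, and where it had no peak any PAE peak above the floor made PAE higher. The mean log2 difference over regions was -0.046 in lane 4, 0.028 in lane 5, -0.084 in lane 6 and -0.175 in lane 8. By this mean PAE was lower in each of these lanes but lane 5. The share over all regions moved with the scaling. After median ratio scaling 55.4% were lower, and after quantile normalization, which gives every library the same distribution of heights, 52.1%. Differences of at least 1.5-fold were fitted in 7234 regions in the direction of PAE being lower (2.46% of tested) and in 1312 in the other direction (0.446%).

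The calls themselves leaned the same way. A peak was called in more CON than PAE libraries in 143602 regions (48.9% of tested) and in more PAE than CON libraries in 91617 (31.2%), and 58683 regions (20.0%) were called equally often. Regions called in all 10 CON libraries numbered 22744 (7.74% of tested), and those called in all 10 PAE libraries 19888 (6.77%). Peaks in CON libraries only were found at 10923 regions (3.72% of tested) and in PAE libraries only at 5588 (1.90%). Of these, 63 (0.0214% of tested) and 22 (0.00749%) had a peak in 7 or more libraries of the group. No region was called in all 10 libraries of a group and in none of the other. These counts are not independent of the number of peaks per library given above.

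The 10 regions of smallest p in each direction are described first. None of them lay at a gene named in the study's lists, and they are given by their position in Rn6, of which no annotation was used here. The smallest p was found for a region of 606 bp at chr1:142920866-142921471. CON libraries had heights from 1.49 to 2.73 there with a median of 1.78, and a called peak in 10 of 10. PAE libraries reached from the floor to 1.11 with a median at the floor, and had a called peak in 3 of 10. All CON libraries thus lay above all PAE libraries, which held for 1 of the 293902 regions in this direction (0.00034%) and for none in the other. The fitted log2 difference was -1.67 ± 0.26 (SE, limma p = 9.57e-07, adjusted p = 0.154), and a peak was called in 5 of 10 PF libraries.

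A region of 2343 bp at chr10:98550668-98553010 had heights of 0.977 to 2.42 in CON (median 1.48, called in 10) and from the floor to 1.84 in PAE (median at the floor, called in 3). The groups overlapped through 2 PAE libraries above the lowest CON library, and the log2 difference was -1.36 ± 0.21 (limma adjusted p = 0.154). PF libraries were called in 9 of 10 there, with a mean height of 1.08 against 1.64 in CON and 0.693 in PAE. At chr2:593747-595037, 1291 bp long, CON libraries ran from the floor to 2.23 with a median of 1.92 and PAE libraries from the floor to 1.67 with a median at the floor. Peaks were called in 9 CON, 1 PAE and 5 PF libraries, and the log2 difference was -1.88 ± 0.31 (limma adjusted p = 0.233). These regions, with the one on chromosome 1, were the 3 that passed an FDR of 0.05 when only regions called in 6 or more libraries were tested (limma adjusted p = 0.017 for those on chromosomes 1 and 2 and 0.0415 for that on chromosome 10). Over the alternatives of the fit the adjusted p ran from 0.000901 to 0.956 in 26 fits for the region on chromosome 1, from 5.72e-05 to 0.956 in 26 for that on chromosome 2 and from 0.000579 to 0.852 in 25 for that on chromosome 10. The lowest values on chromosomes 1 and 10 came from subtracting lane effects before the fit, which does not charge the fit for the lanes estimated. That on chromosome 2 came with the sex class read from chromosome X and Y peaks.

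Of the other 7 regions of smallest p that were lower in PAE, 4 were called in all 10 CON libraries. At chr2:251498896-251499862 the CON libraries had heights of 1.03 to 1.53 and the PAE libraries from the floor to 1.03, with means of 1.27 ± 0.184 and 0.681 ± 0.245 (SD, n = 10 each) and the smallest SD in CON of these regions. Its log2 difference was -1.09 ± 0.22 (limma adjusted p = 0.803), and PF animals had a mean of 1.14. At chr19:20462742-20463225 the means were 1.57 ± 0.457 in CON, 0.721 ± 0.415 in PAE and 0.896 in PF. Both positions are on the study's lists with no gene named, the first as specific to PAE and the second as shared with pair-feeding. The log2 differences of the 7 regions lay between -1.37 and -1.09, and all had an adjusted p of 0.662 or 0.803.

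Among the 10 regions of smallest p that were higher in PAE, the first lay at chr19:28947387-28948016 (630 bp). CON libraries ran from the floor to 2.17 with a median at the floor and PAE libraries from the floor to 2.56 with a median of 1.64, and peaks were called in 2 CON, 9 PAE and 3 PF libraries. The log2 difference was 1.59 ± 0.30 (limma adjusted p = 0.724). The tallest of these regions, at chr9:18240576-18241235, separated into called and uncalled libraries: the 4 CON libraries with a peak had heights of 2.86 to 3.80, as high as the 10 PAE libraries at 2.42 to 3.67, and the other 6 CON libraries had no peak. Its log2 difference of 1.96 ± 0.40 (limma adjusted p = 0.803) therefore rests on the number of libraries called and not on the height where called. At chr7:75168936-75169422 the heights were 1.11 to 1.81 in all 10 PAE libraries, and from the floor to 1.54 in CON with a peak in 4 of 10, with a log2 difference of 1.35 ± 0.28 (limma adjusted p = 0.803). At chr9:44963505-44964081 peaks were called in 2 CON, 9 PAE and 6 PF libraries, and the log2 difference was 1.26 ± 0.25 (limma adjusted p = 0.803). The other 6 had log2 differences of 1.05 to 1.36.

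**Figure D2:**
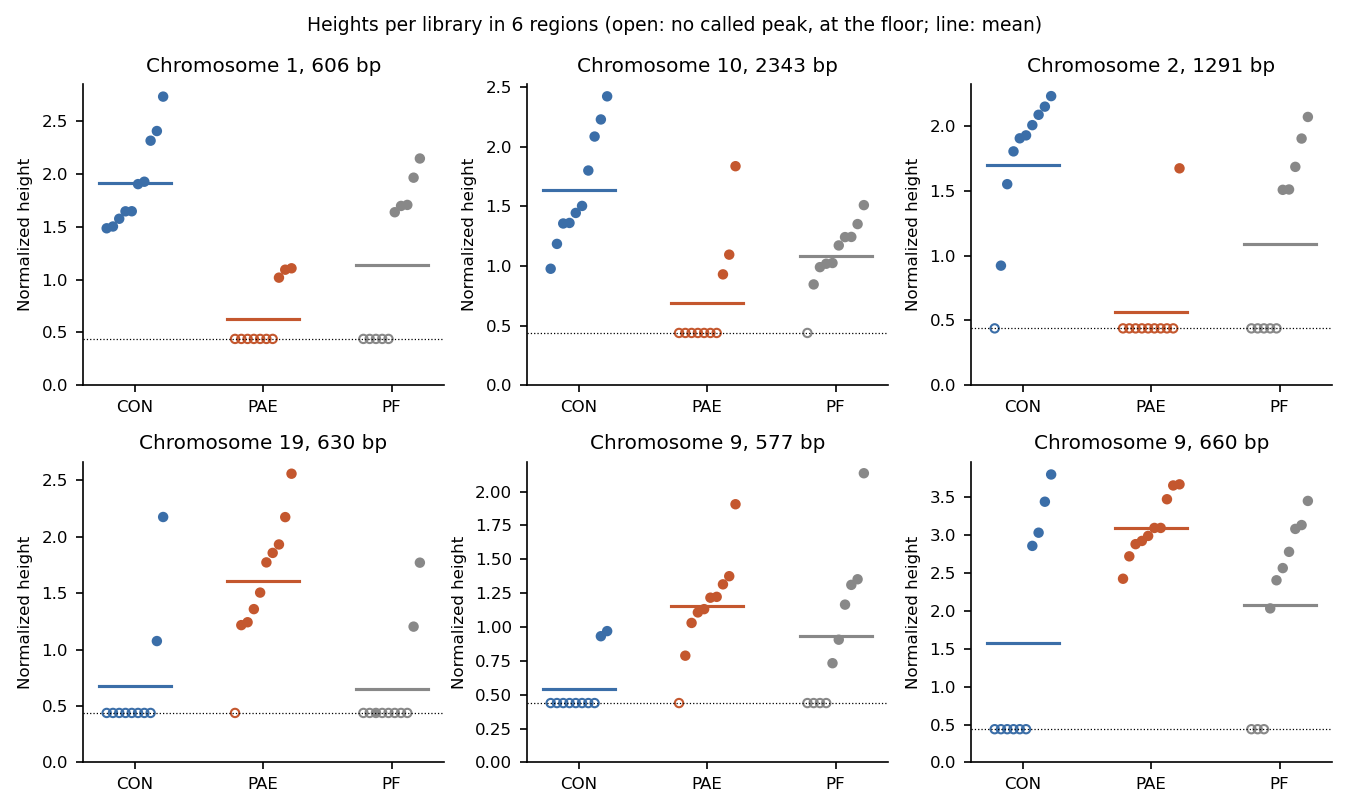
Normalized height of each library in 6 of the named regions, by group, with filled points for called peaks, open points for libraries without one at the floor (dotted line) and a bar at the mean. In the upper row, on chromosomes 1, 10 and 2, most CON points lie above the PAE points, while in the lower row, on chromosomes 19 and 9, most PAE libraries have a peak and most CON libraries lie at the floor.

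Peaks called in 9 or 10 libraries of a group and in at most 1 of the other marked 28 regions. In 23 of them the peak was in CON libraries (0.00783% of tested) and in 5 in PAE libraries (0.0017%). The 23 regions lay on 13 chromosomes and were 378 to 1291 bp long, with log2 differences from -1.88 to -0.42. One of them was chr1:52287256-52288311, called in 10 CON and 1 PAE libraries, where the mean height was 0.842 ± 0.249 in CON and 0.488 ± 0.156 in PAE (SD, n = 10 each, log2 difference -0.95 ± 0.24, limma adjusted p = 0.803). Peaks in 9 CON and no PAE libraries were found at chr6:108904407-108904998 and chr3:56408092-56408559, both with low peaks (CON means of 0.608 and 0.596, beside the floor of 0.438). PF libraries were called in a median of 4 of 10 at the 23 regions, with a range of 1 to 8.

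The 5 regions with the opposite split included a position that the study lists in an intron of Lrrc8c, which encodes a subunit of volume-regulated anion channels. At chr14:5324628-5325065 the CON libraries were at the floor apart from 1 at 1.05, and the PAE libraries ran from the floor to 1.84 with a median of 1.09. Peaks were called in 1 CON, 9 PAE and 3 PF libraries, and the log2 difference was 1.12 ± 0.27 (limma p = 0.000337, adjusted p = 0.803). The other 4, on chromosomes 12, 3, 4 and 5, had log2 differences from 0.60 to 0.84. Fisher's exact test gave p from 0.000119 to 0.00109 for the 28 regions, and an adjusted p of 1 for each. The unadjusted values follow from the call counts by which the regions were chosen, so they are no support for them.

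The lean toward lower heights in PAE was even across the genome. On each of the 20 autosomes between 63.7% (chromosome 2) and 67.7% (chromosome 12) of the tested regions had a lower fitted height in PAE. Chromosome 1, with 30074 regions, had 64.9%, and chromosome 20, with 7819, had 66.4%. To compare chromosomes with one another, the mean log2 height of a chromosome was taken relative to the mean over all regions of the same library. None of the 20 chromosomes differed between the groups on this measure at an adjusted p of 0.05 (permutation tests, smallest p = 0.0508 for chromosome 8, adjusted p = 0.474, and no unadjusted p under 0.05). On means of littermates chromosome 8 had an exact permutation p of 0.0159 (adjusted p = 0.317), and within lanes chromosome 11 one of 0.04 (adjusted p = 0.355. The difference was widest on chromosome 12, which also had tall peaks relative to the library mean in both groups, at 0.113 ± 0.0355 in CON and 0.0899 ± 0.037 in PAE (SD, n = 10 each), a difference of -0.02 (permutation p = 0.179, adjusted p = 0.474). Chromosome 20 followed with -0.01, and chromosome 2 lay on the other side with 0.01. These differences stand beside one of -0.0834 in the mean log2 height over all regions. That mean was -0.71 ± 0.13 in CON and -0.79 ± 0.11 in PAE (permutation p = 0.144, adjusted p = 0.233 over the 6 library measures).

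**Figure D3:**
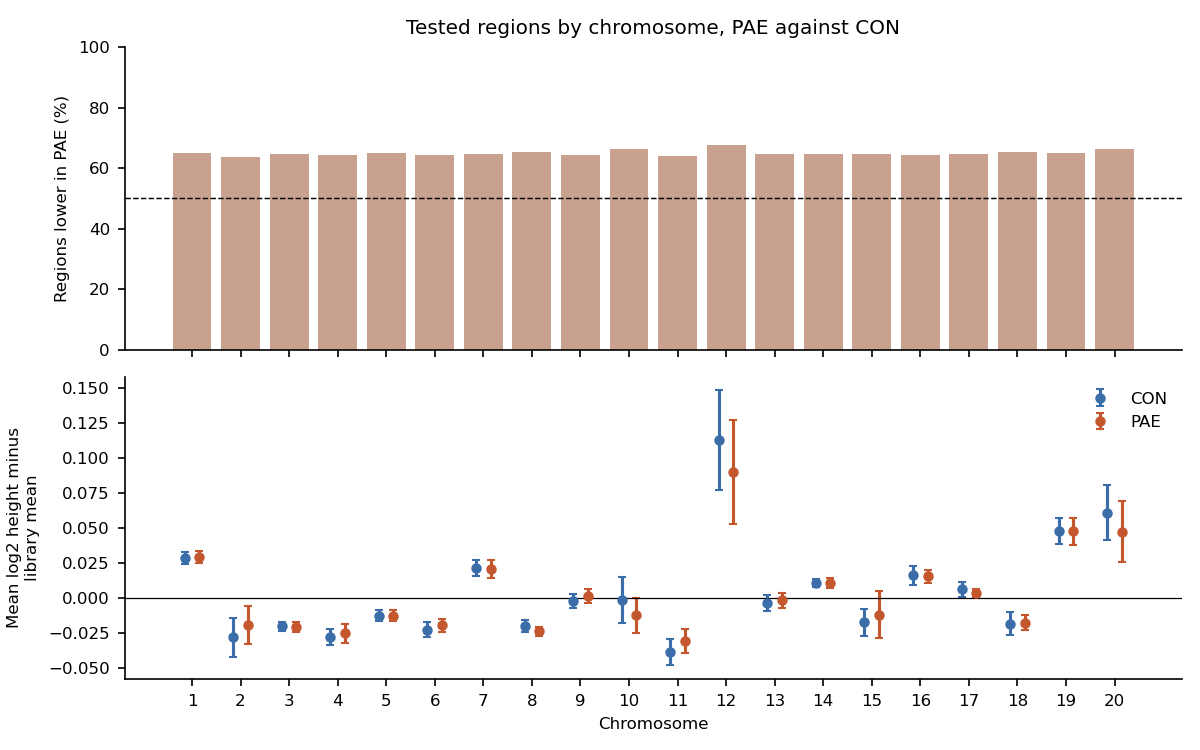
The upper panel gives the percent of tested regions with a lower fitted height in PAE for each autosome, with a dashed line at 50%, and the lower panel the mean log2 height of a chromosome minus the library mean, as group mean and SD over 10 libraries. All 20 bars lie between 63.7 and 67.7%, and the CON and PAE intervals overlap on each chromosome.

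Longer, taller and more often called regions leaned further toward lower heights in PAE. The share of regions lower in PAE was 60.1% in the shortest of 4 length classes (median 355 bp), 63.6% and 67.2% in the next (medians 486 and 733 bp) and 72.8% in the longest (median 1171 bp), with median log2 differences from -0.05 to -0.13. By mean height it was 56.3% in the lowest quartile and 71.1% in the highest. Regions called in 3 to 5 libraries were lower in 60.9% and those called in all 20 libraries in 75.1%. Length, height and call frequency are tied to one another, since a region called in few libraries has most of its values at the floor, where differences shrink. Relative to the library mean, the longest regions differed by -0.05 and the shortest by 0.03, and the lowest and highest quartiles of height by 0.06 and -0.06. None of the 13 classes passed the test (permutation p of 0.107 to 0.298, adjusted p of 0.19 to 0.298, and no unadjusted p under 0.05).

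At an unadjusted p under 0.05 the counts varied among the classes. In the highest quartile of height 7.7% of the regions had an unadjusted p under 0.05 with a lower height in PAE, against 4.2% in the lowest quartile and 5.13% of all tested regions. Of the 14088 regions called in all 20 libraries 608 were lower (4.32%) and 27 higher (0.192%) at this level, but when limma was fitted to these regions alone 1270 were lower and 79 higher, so no order is read from this class. Among the shortest regions 1.32% were higher in PAE at this level, against 0.425% of the longest.

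**Figure D4:**
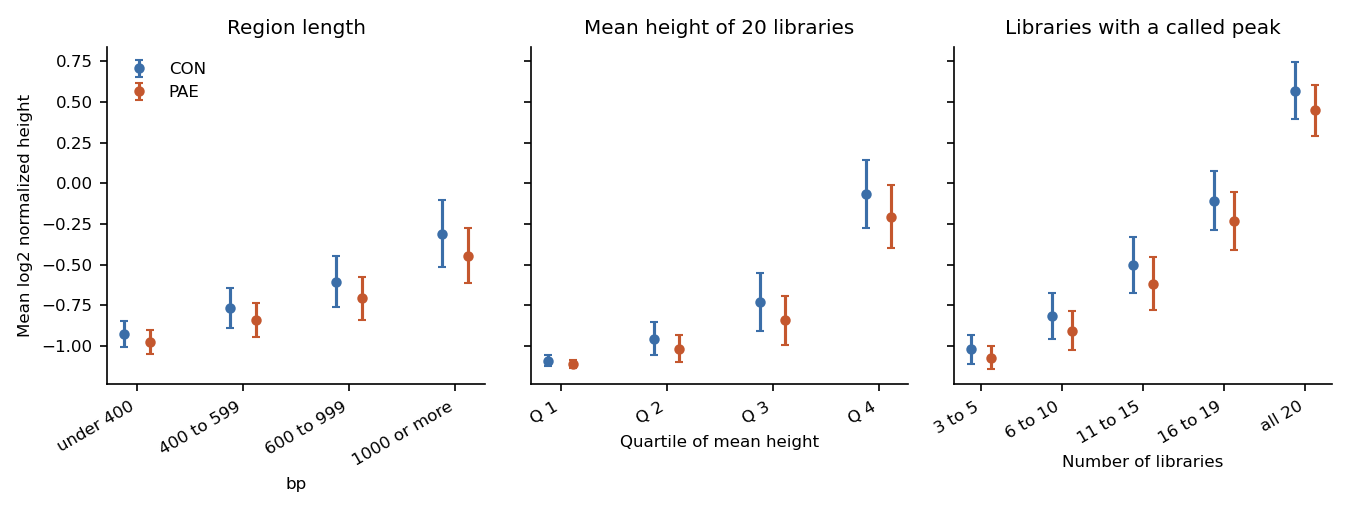
Mean log2 normalized height by class of region length, quartile of mean height, and number of libraries with a called peak, with points at the group mean and bars of 1 SD over 10 libraries. PAE means lie below CON means in all 13 classes by less than the SD, and the distance is narrower in the lowest classes, where values are at or near the floor.

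Within the labelled sexes the picture was alike, with the limit that 11 of the 20 libraries went against their label on the sex chromosomes. Limma called 0 regions within animals labelled female (0% of tested), 0 within animals labelled male (0%) and 0 for the difference between them (0%) at an FDR of 0.05. Before adjustment the counts with p under 0.05 were 18739 (6.38%), 12458 (4.24%) and 11314 (3.85%). In the labelled females 61.7% of the regions were lower in PAE and in the labelled males 60.9%. The region at chr2:593747-595037 had log2 differences of -2.73 in labelled females and -1.22 in labelled males (limma p = 0.00568 for the difference, adjusted p = 0.996), and that at chr10:98550668-98553010 had -1.35 and -1.36. Leaving out the litter of dam C44 raised the count in labelled females from 0 to 161.

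Gene names come from the positions that the study lists as different between PAE and CON, either specific to PAE or shared with pair-feeding. The study chose those positions on these same animals with read counts, so their direction is no independent evidence, and no test was made over them. The same holds for where PF values lie between CON and PAE at them, since the lists were divided by it. Of 1314 listed positions, 996 were among the tested regions. Of the 996 regions, 728 were lower in PAE and 268 higher, and 376 had an unadjusted limma p under 0.05 (37.8%, beside 6.06% of all tested regions), while the smallest adjusted p was 0.803. Their median log2 difference was -0.31, beside -0.07 over all regions. Listed exons were lower in 121 of 128 regions with a median of -0.44, introns in 206 of 255 with a median of -0.35, and positions outside genes in 382 of 588 with a median of -0.25. Of 15 genes with more than 1 tested position, 8 were lower at all of them, 2 were higher at all and 5 went both ways. Foxn3, a forkhead transcription factor, had 3 lower positions within 84.1 kb, and Tenm2, a teneurin of synaptic adhesion, had 2 lower and 1 higher.

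**Figure D5:**
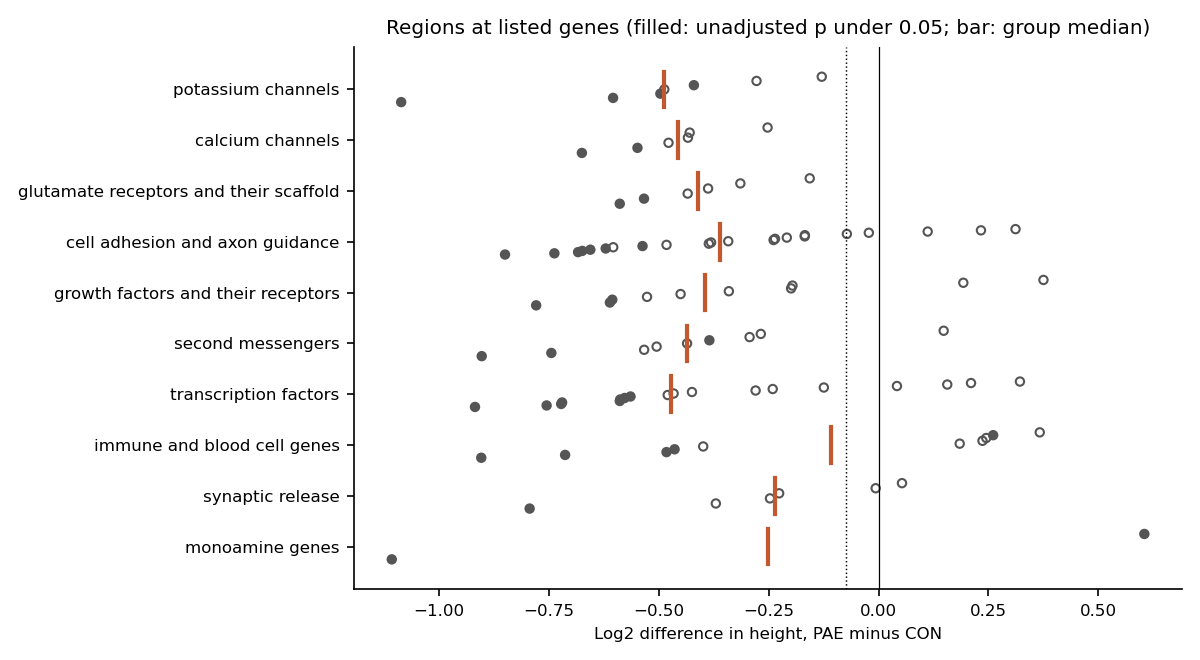
Log2 difference in height between PAE and CON for each tested region at a gene of 10 groups, filled where the unadjusted limma p was under 0.05, with a bar at the group median and a dotted line at the median of all tested regions. All regions of the potassium, calcium and glutamate groups lie below 0, and the immune and blood cell genes are split 5 and 5.

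The counts by gene group below stand beside those of the listed positions as a whole, of which 80.8% of the introns and 94.5% of the exons were lower and 37.8% of all had an unadjusted p under 0.05. A share of lower regions near these values is no result about a group, and with 2 to 22 regions a group none is set apart here. All 7 regions at potassium channel genes were lower, with a median log2 difference of -0.49, and 4 had an unadjusted p under 0.05. At Kcnab2, an auxiliary beta subunit of voltage-gated potassium channels, CON libraries ran from the floor to 2.30 (median 1.22, called in 10) and PAE libraries from the floor to 1.15 (median 0.604, called in 6), a log2 difference of -1.09 ± 0.30 (limma p = 0.0013, adjusted p = 0.803). At Kcnc2, a fast-gating channel typical of fast-spiking interneurons, all 20 libraries had a peak, with 0.788 to 1.44 in CON and 0.443 to 1.02 in PAE and a log2 difference of -0.50 ± 0.21. Kcnh5 and Kcnn3, a small-conductance calcium-activated channel, had log2 differences of -0.49 and -0.60. The groups overlapped at each of the 4. All 6 regions at calcium channel genes were lower (median -0.46, 2 with unadjusted p under 0.05). These included the pore-forming L-type subunits Cacna1d (-0.55 ± 0.24, means of 1.53 ± 0.618 in CON and 0.898 ± 0.283 in PAE) and Cacna1c (-0.48 ± 0.24), the N-type Cacna1b (-0.68 ± 0.31) and the T-type Cacna1g (-0.43 ± 0.30). PF means were 0.938 at Cacna1d and 0.626 at Cacna1b, near those of PAE, as the choice of both positions as shared with pair-feeding implies.

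Genes of glutamatergic signalling were lower at all 6 tested regions as well, with a median of -0.41 and 2 with an unadjusted p under 0.05. Grm8, a presynaptic metabotropic receptor, was called in 10 CON and 9 PAE libraries with means of 1.09 ± 0.257 and 0.796 ± 0.205 (SD, n = 10 each). Its CON libraries lay between 0.686 and 1.56 and its PAE libraries between the floor and 1.23, and the log2 difference was -0.43 ± 0.22. The kainate receptor Grik1 had -0.39, the AMPA receptor scaffold Grip1 -0.53 and Grin1, the obligate NMDA receptor subunit, -0.59 ± 0.22. At Grin1 peaks were called in 6 CON, no PAE and 1 PF library, so its value rests on calls alone.

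Cell adhesion and guidance genes were lower at 19 of 22 regions (median -0.36, 7 lower and none higher with an unadjusted p under 0.05). At Srgap1, a GTPase-activating protein of Slit-Robo guidance, CON libraries ran from 0.902 to 2.09 and PAE libraries from the floor to 1.57, with a log2 difference of -0.68 ± 0.23, and PF animals had a mean of 1.30 beside 1.38 in CON and 0.913 in PAE. Ptprs, a receptor phosphatase for proteoglycans and synaptic organizers, was called in all 20 libraries with -0.54 ± 0.21. The cadherin Cdh23 had -0.24 ± 0.31, which turned to 0.06 without the litter of dam E3, and the presynaptic neurexin Nrxn2 had -0.24 with -0.99 in labelled females and 0.36 in labelled males.

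Genes of growth factors and their receptors were lower at 8 of 10 regions (median -0.40, 3 lower and none higher with an unadjusted p under 0.05). The 8 lower regions lay at receptor genes and the 2 higher ones at ligand genes. The neuregulin receptor Erbb4 was called in 7 CON and 1 PAE libraries (-0.78 ± 0.26), the neurotrophin receptor Ntrk3 in 8 and 1 (-0.34 ± 0.18), Alk in 6 and 2 (-0.45) and the Wnt receptor Ror2 in 8 and 5 (-0.53). Ror2 had 1 PAE library at 2.04 while the other 9 were at most 0.756. PF means of 0.725 at Erbb4, 0.580 at Ntrk3 and 0.778 at Alk lay nearer to the CON means of 0.851, 0.591 and 0.788 than to the PAE means of 0.510, 0.456 and 0.512, as the choice of these positions as specific to PAE implies. Second messenger genes were lower at 8 of 9 regions (median -0.44, 3 with an unadjusted p under 0.05), among them Akap9, a scaffold for protein kinase A (-0.74 ± 0.27), and the cGMP phosphodiesterase Pde9a (-0.51 ± 0.32). Plcd3, a phospholipase C, had -0.53, and the protein kinase C isoform Prkce had -0.29.

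Transcription factor genes were lower at 14 of 18 regions (median -0.47, 7 lower and none higher with an unadjusted p under 0.05). Usf1, a ubiquitous basic helix-loop-helix factor, had a peak in all 20 libraries, from 0.932 to 1.97 in CON and from 0.550 to 1.31 in PAE, a log2 difference of -0.58 ± 0.21. An intron of Foxn3 had -0.76 ± 0.24 with means of 1.47 ± 0.310 in CON, 0.967 ± 0.410 in PAE and 1.09 in PF. Tcf4, a helix-loop-helix factor of neuronal development, had -0.42, and the vitamin D receptor Vdr had 0.04 ± 0.29, below 0 without a lane term (-0.16). Dock1, which activates Rac GTPases, had -0.50 ± 0.22, and drebrin (Dbn1), an actin-binding protein of dendritic spines, had -0.53 ± 0.25. Arhgap8 went the other way near its transcription start, called in 2 CON, 10 PAE and 6 PF libraries with a log2 difference of 0.52 ± 0.21, while a position in its intron was lower.

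Immune and blood cell genes were split, with 5 of 10 regions lower and 5 higher, a median of -0.11, and 4 lower and 1 higher with an unadjusted p under 0.05. Pax5, a B cell factor, was called in 10 CON and 5 PAE libraries (0.860 to 1.79 in CON, from the floor to 1.16 in PAE, -0.90 ± 0.25, limma p = 0.0015, adjusted p = 0.803), and the lectin gene Clec4b2 in all 20 (-0.46 ± 0.17). Cd247, a T cell receptor subunit, and Lyve1, a marker of lymphatic vessels and of some macrophages, had 0.25 and 0.24 (limma p = 0.056 and 0.372), each called in 2 CON libraries and in 6 and 5 PAE libraries. Synaptic release genes had 4 of 6 regions lower, 1 higher and Erc1 near 0 (median -0.24, 1 lower with an unadjusted p under 0.05), most of them called in few libraries. Apba2, an adaptor of vesicle exocytosis, had -0.79 ± 0.29 and Dnm3, a dynamin, -0.37, while Stx11 had -0.23 and Erc1 -0.0066. The sign at Erc1 changed in 7 of the alternatives, so no direction is given for it.

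Near transcription starts 11 listed regions were tested, 7 lower and 4 higher in PAE. At Drd4, the D4 dopamine receptor, a region of 444 bp at chr1:214277605-214278048 of Rn6 was called in 8 CON, 1 PAE and 5 PF libraries. CON libraries ran from the floor to 1.85 with a median of 1.10, and PAE libraries were at the floor apart from 1 at 1.36, a log2 difference of -1.11 ± 0.29 (limma p = 0.00081, adjusted p = 0.803). The other monoamine gene tested, the organic cation transporter Slc22a3, went the other way, called in no CON and 5 PAE libraries (0.60 ± 0.20). Myh7, the slow cardiac myosin heavy chain, was called in 8 CON and 1 PAE libraries (-0.95 ± 0.26) and Fabp7, the fatty acid binding protein of radial glia and astrocytes, in 6 and 2 (-0.72). Arhgap8 completed the 4 regions with an unadjusted p under 0.05. RefSeq promoters of build GRCr8, 250 bases before to 50 after the start, are shown for the 3 genes of these 4 that have one in the table used, with each CpG in capitals, since the methylated cytosines that the antibody binds are mostly in CpG. The study's lists place these 3 positions in the wider of its promoter classes, which reaches further upstream than these windows. The positions are also given in another build. The peaks may therefore lie partly or wholly outside these windows, which was not tested. The CpG counts below describe the windows and not the peaks. The Drd4 window is at chr1:205825687-205825986 (+ strand), that of Myh7 at chr15:32438145-32438444 (- strand) and that of Fabp7 at chr20:37669356-37669655 (+ strand).
Drd4: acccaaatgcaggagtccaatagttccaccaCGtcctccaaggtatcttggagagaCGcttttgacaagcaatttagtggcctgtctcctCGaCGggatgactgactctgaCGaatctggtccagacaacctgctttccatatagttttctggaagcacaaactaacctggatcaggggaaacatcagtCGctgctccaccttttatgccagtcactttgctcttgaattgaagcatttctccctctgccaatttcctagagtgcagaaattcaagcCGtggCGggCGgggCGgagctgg
Myh7: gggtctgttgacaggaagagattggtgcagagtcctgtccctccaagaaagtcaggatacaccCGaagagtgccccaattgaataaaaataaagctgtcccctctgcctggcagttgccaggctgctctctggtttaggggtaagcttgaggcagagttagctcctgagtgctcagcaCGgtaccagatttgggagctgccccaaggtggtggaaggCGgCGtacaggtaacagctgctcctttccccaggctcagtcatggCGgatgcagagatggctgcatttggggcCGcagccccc
Fabp7: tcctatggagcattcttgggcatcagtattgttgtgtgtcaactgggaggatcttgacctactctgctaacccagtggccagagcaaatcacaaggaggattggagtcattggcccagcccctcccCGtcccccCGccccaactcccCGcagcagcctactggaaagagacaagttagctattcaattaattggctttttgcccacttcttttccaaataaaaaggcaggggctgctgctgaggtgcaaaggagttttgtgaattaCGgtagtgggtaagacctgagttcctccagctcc
Counted on both strands at once, since CG reads the same on either, the Drd4 window holds 10 CpG, that of Myh7 6 and that of Fabp7 4, against a median of 7 over 33469 promoters of the same length. As many or more are found in 41.5%, 56.3% and 69.3% of these promoters.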

How the data were processed

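Tissue, libraries and groups were taken per the labels, and the dam and the lane of each library as well. The authors aligned paired reads to Rn6 with BWA, and per the file headers called peaks in each library alone with MACS2 2.1.4 (q of 0.05, no control library). The deposited values used are the pileup at the summit, a coverage signal, and −log10 of the q-value; read counts were not used here, so no count model was run. Autosomal peaks of the 20 libraries were merged (1 bp overlap), regions called in 3 or more were kept, and the highest pileup per 1000000 filtered fragments was compared on the log2 scale with limma 3.58.1 in R 4.3.3 (labelled sex and lane as covariates, dam as a random effect, Benjamini-Hochberg FDR of 0.05). Single measures were compared by permutation (100000 draws; exact within lanes, and exact over dam means, where the smallest p is 0.00794). The fit, without the dam term, was tested on simulated heights with 200 changed regions among the often called ones, as many by a log2 of 1 as of 2. At an FDR of 0.05 it called 16 of those changed by 1 and 74 of those changed by 2, beside 2 unchanged regions. A count of 0 regions therefore does not exclude differences of these sizes. Members and gene lists were chosen with earlier results of these data known. Regions named are the 10 of smallest p in each direction, up to 10 with split calls in each direction, and up to 4 listed positions per gene group, by libraries called and then size of difference. Columns of the study's own comparisons were not used. The number of fragments and the antibody enrichment limit the precision of a height, and a peak not called is not an absence of DNAm. One gene group and one gene of the lists are not reported here.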

Additional observations from a re-analysis of the deposited data

Results flagged for a closer look

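In a group of 10 libraries a value was marked where its gap to the nearest other was wide for the range of its group by Dixon's criterion. Of 115 groups of values tested, 10 were marked. The criterion marks about 1 in 20 groups of normally distributed values. Many groups here hold values tied at the floor, so the count is not compared with that rate. PAE library 2, a library of lane 8 from dam E2, covered 81.3 Mb with peaks, beside 39.4 to 60.9 Mb in the other PAE libraries. The same library stood above the rest of its group at Dbn1 (1.97, others up to 0.965), Cdh23 (2.45, which no other PAE library reached), Vdr (2.18, others up to 1.29), Ror2 (2.04, others up to 0.756) and Prkce (1.23, others up to 0.787). CON library 2, also of lane 8, had a height of 1.01 at chr6:108904407-108904998 (others up to 0.693) and of 1.01 at Ntrk3 (others up to 0.725). CON library 9, of lane 8 as well, had 1.44 at Kcnc2 (others 0.788 to 1.12) and 1.53 at Kcnn3 (others up to 1.01). The part of lane in these values was not tested.

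Peaks of the sex chromosomes, which the comparisons leave out, put 9 of 10 libraries labelled female and 2 of 10 labelled male in the other class than their label, 7 of them CON and 4 PAE.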

How the results depend on the processing

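The count of 0 regions past an FDR of 0.05 became 1 without a lane term, 2 with the sex class read from chromosome X and Y peaks, 1 with all 30 libraries, 5 with each library's own floor, 3 among regions called in 6 or more libraries, and 1261 (1133 lower in PAE) when lane effects were subtracted before the fit, which does not charge the fit for the lanes estimated. In labelled females it became 1 without a lane term, 9 with lane subtracted, 3 with own floors and 2 among regions called in 6 or more; in labelled males 1 among the last; and for their difference 1 with lane subtracted and 1 with own floors. Leaving out the litter of 1 dam gave 0 to 161 regions in labelled females, 0 to 1 in labelled males and 0 to 1 for their difference, with the highest of each without dam C44. The share of regions lower in PAE was 75.1% among regions called in all 20 libraries, 55.4% after median ratio scaling and 52.1% after quantile normalization, and 59.8 to 66.5% without 1 dam. With lane subtracted 11 of 13 classes of length, height and call frequency passed, and in no alternative a chromosome. The difference in median peak height ranged from -0.0888 (without dam E2) to -0.0354 without 1 dam. Other causes of these changes were not tested.

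Of 2004 values of named regions under the alternatives, 1945 kept direction and side of the threshold, 46 came to pass it (34 of them with lane subtracted) and 13 changed sign. Vdr had -0.16 without a lane term and -0.12 with all 30 libraries, and -0.15 to 0.22 without 1 dam. Erc1 had 0.010 without labelled sex, 0.016 without lane 7 and 0.012 with own floors, and -0.066 to 0.061 without 1 dam. Stx11 had 0.051 in the libraries whose X and Y peaks match their label, and Cdh23 had -0.61 to 0.058 without 1 dam. No paired analysis was possible because dams are nested within groups and the labels give the groups no shared replicate numbers. The floor limits what a height can show below 0.438, and the depth of a library which peaks are called.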
